A study of Mus musculus with 7 samples.

Results

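The genes described here are those of 3 fibroblast growth factor (FGF) receptors, Fgfr1, Fgfr2 and Fgfr3, and 6 FGF ligands of skin, Fgf1, Fgf2, Fgf7, Fgf10, Fgf18 and Fgf22. All probe sets that the platform's annotation gives to exactly 1 of these genes were taken, which gave 18 probe sets for the 9 genes, among 45037 probe sets other than controls and 18193 genes. A probe set is a group of short oligonucleotides on the array that reports 1 transcript or a few, so each was read on its own. The 7 mouse arrays covered 2 basal cell carcinomas (tumour 1 and 2), 2 epidermis samples of newborn (P0) mice labelled normal, and the carcinoma line PDKC1 at 0 h, 6 h and 10 h with cyclopamine, which blocks the Hedgehog pathway at Smoothened. The sources used here give neither the strain of the mice, nor the genotype or age of those with tumours, nor the dose of cyclopamine. All epidermis came from newborns, so tumour and age cannot be told apart. RNA input was 100 ng for each tissue array and 2 µg for each PDKC1 array.

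FGF receptors are tyrosine kinases on the cell surface that bind an FGF together with heparan sulfate, and then signal through the adaptor FRS2 to the RAS and ERK kinases. Alternative splicing gives FGFR1, FGFR2 and FGFR3 a IIIb form, typical of epithelium, or a IIIc form, typical of mesenchyme. In skin, FGF7 and FGF10 are made by dermal fibroblasts and, like FGF22, act on the IIIb form of FGFR2 in keratinocytes, while FGF18 is a regulator of the hair cycle.

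The promoters of Fgfr2 and of Fgf7 and Fgf22, the genes of that receptor and of ligands for it, are shown because these genes moved apart between tumour and epidermis. Each window runs from 250 bases before to 50 after a RefSeq transcript start of GRCm38.p6, 5′ to 3′ on the gene's strand. Capitals mark GC boxes (GGGCGG or its reverse complement CCGCCC) and CCAAT boxes (CCAAT or ATTGG).
Fgfr2 chr7:130266759-130267058 (-): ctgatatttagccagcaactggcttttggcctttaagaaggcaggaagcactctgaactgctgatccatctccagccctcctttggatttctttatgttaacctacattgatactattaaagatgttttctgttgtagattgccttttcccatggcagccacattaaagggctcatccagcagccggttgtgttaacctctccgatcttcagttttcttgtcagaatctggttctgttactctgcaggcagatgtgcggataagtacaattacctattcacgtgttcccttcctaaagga
Fgf7 chr2:126034408-126034707 (+): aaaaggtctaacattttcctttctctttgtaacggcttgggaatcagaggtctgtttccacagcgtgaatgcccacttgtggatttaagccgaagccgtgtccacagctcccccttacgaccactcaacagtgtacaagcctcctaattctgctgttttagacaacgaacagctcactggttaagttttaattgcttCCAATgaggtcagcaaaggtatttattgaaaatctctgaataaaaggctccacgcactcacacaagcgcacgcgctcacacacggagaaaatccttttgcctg
Fgf22 chr10:79754859-79755158 (+): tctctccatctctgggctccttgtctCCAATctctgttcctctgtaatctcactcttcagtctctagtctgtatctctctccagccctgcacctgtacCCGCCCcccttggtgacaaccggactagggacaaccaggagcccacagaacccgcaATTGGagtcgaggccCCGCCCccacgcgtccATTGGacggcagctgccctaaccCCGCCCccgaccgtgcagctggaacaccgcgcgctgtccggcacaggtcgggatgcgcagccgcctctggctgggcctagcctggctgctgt
The Fgf22 window held 3 GC boxes and 3 CCAAT boxes, the Fgf7 window 1 CCAAT box, and the Fgfr2 window none of either. Over all 32851 windows of the same length, 35.7% held a GC box and 37.4% a CCAAT box. The motifs did not overlap each other in these windows. G and C made up 63.7% of the Fgf22 window against 43.7% for Fgfr2 and 45.7% for Fgf7, and the median over all windows was 52.7%. RefSeq windows were at hand for 7 of the 9 genes, 8 windows in all. Of these, 6 held a GC box and 3 a CCAAT box. The windows of Fgfr3, Fgf2, Fgf10 and Fgf18, genes not called between the tissues, each held a GC box. G and C made up 60.7% to 78.7% of them, so neither trait was particular to Fgf22. The GLI consensus TGGGTGGTC was found on either strand in 0 of the 8 windows, and in 0.253% of all windows.

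A few properties of the arrays touch the values that follow. The median probe set read 118.2 and 127.9 in the tumours and 71.0 to 78.1 on the other arrays. The 3′ to 5′ intensity ratio of the Actb control was 11.3 and 93.1 in tumour 1 and 2, 2.84 to 3.98 in epidermis and 1.15 to 1.21 in PDKC1, and its part in the results was not tested. Of 10 fibroblast markers 9 were higher in tumour, and their summed intensity was 82952 and 105454 in the tumours, 20697 and 19846 in epidermis and 711 to 932 in PDKC1. No fibroblast marker was at 0 in any array. Of 8 keratinocyte markers 2 were lower in tumour and none higher, with sums of 132324 and 101722 in tumour and 192858 and 216750 in epidermis. Of all genes 16.2% were higher and 12.3% lower by the same limma test, given below. In PDKC1 at 0 h the basal markers Krt5, Krt14 and Trp63 read 31322, 33585 and 8779. The basal keratin gene Krt15 read 957 there, against 13434 to 30783 in the tissues, and the epithelial adhesion genes Cdh1 and Epcam read 59.4 and 9.6. In RNA from bulk tissue, fewer cells of a type and less RNA per cell cannot be told apart.

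Tumour was compared with newborn epidermis, the normal tissue of the series. Genes of the receptors Fgfr1 and Fgfr2 and of the ligands Fgf1 and Fgf7 had probe sets that were higher in tumour, and both probe sets of Fgf22 were lower. A probe set was called where the adjusted p of limma was under 0.05. By that rule 7 of the 18 were called higher and 2 lower. Over all probe sets 18.3% were called higher and 9.17% lower, 27.5% in either direction. The median log2 difference, tumour minus epidermis, was 0.88 for the 18 probe sets and 0.19 for all. Without tumour 1 these medians were 0.14 and 0.26. Scaling moved this split: with array medians set equal, 4 were called higher and 2 lower (10.8% and 19.4% of all probe sets), and the median of all probe sets went to -0.45. Quantile normalization gave 5 and 2 (12.6% and 11.3%), with a median of all at -0.11. Leaving out tumour 1 gave 6 and 1 (20.3% and 12.8% of all probe sets), and without tumour 2 they were 9 and 2 (16.1% and 9.74%). The counts were 4 and 1 without epidermis 1 (7.71% and 2.42%), and also without epidermis 2 (8.82% and 2.75%). In 8 probe sets both tumours lay above both epidermis arrays and in 3 both lay below, against 38.4% and 25% of all probe sets.

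**Figure D1:**
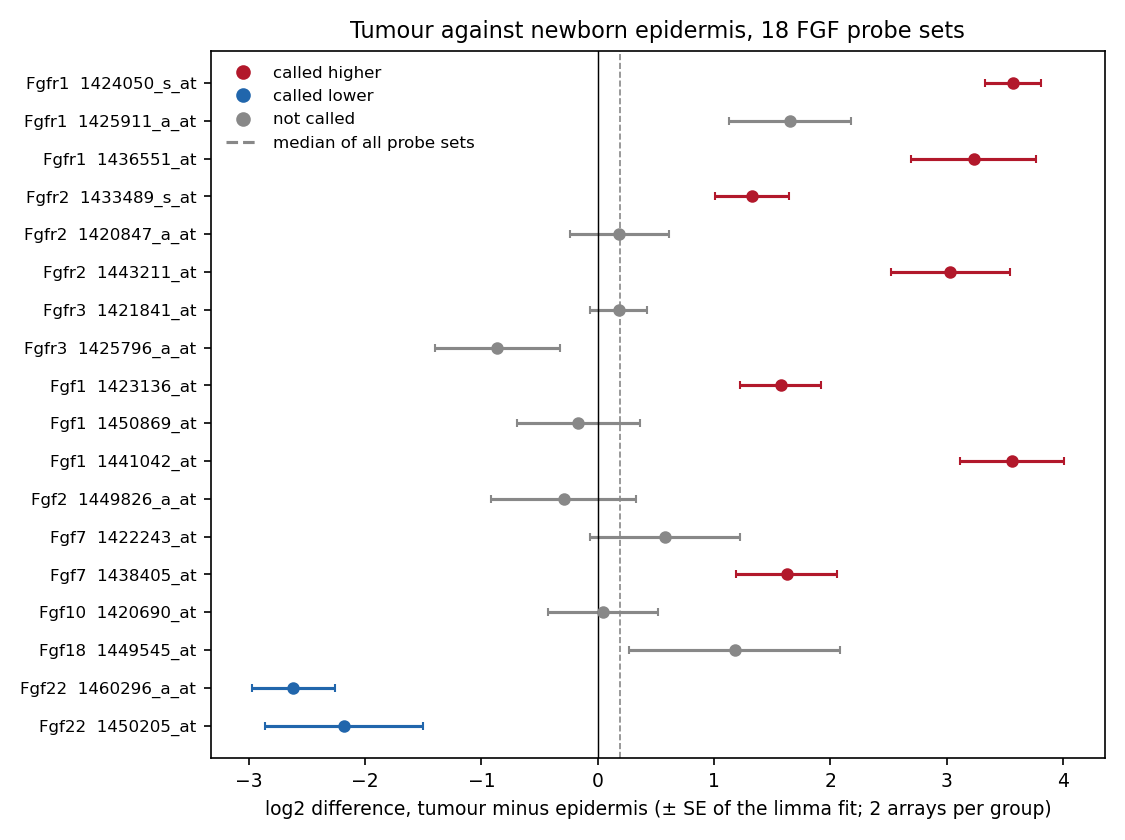
Log2 difference between tumour and newborn epidermis for each of the 18 probe sets, on the log2(intensity + 16) scale, with the SE of the fit over 2 arrays per group; the dashed line is the median of all probe sets. The 7 probe sets called higher lie between 1.33 and 3.57, and the 2 called lower, both of Fgf22, at -2.62 and -2.18.

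Fgfr1, the receptor gene best known from mesenchymal cells, was higher in tumour by 2 of its 3 probe sets. The probe set 1424050_s_at read 2677 and 2385 in the tumours, 206.9 and 189.8 in epidermis, and 586.2, 577.9 and 817.8 in PDKC1 at 0 h, 6 h and 10 h. Each tissue's arrays lay close together and the PDKC1 arrays fell between the tissues. The log2 difference was 3.57 ± 0.24 (SE, 2 arrays per group; adjusted p = 0.000385 by limma), an 11.9-fold difference. The suffix _s_at marks probe sets that may also match other transcripts. The probe set 1436551_at read 387.3 and 400.9 in tumour against 52.8 and 11.7 in epidermis, and 72.9, 123.5 and 106.7 in PDKC1. Its difference was 3.23 ± 0.54 (adjusted p = 0.00475). The third probe set, 1425911_a_at, gave another order: PDKC1 was highest, at 749.6, 903.4 and 982.5, followed by the tumours at 431.1 and 162.6 and epidermis at 74.9 and 72.6. Its difference of 1.65 ± 0.52 was not called (adjusted p = 0.0528). It was called without tumour 2 (2.32, adjusted p = 0.00999), with a pseudocount of 4 (0.0489), with dim probe sets left out (0.0301) and with all 7 arrays in 1 fit (0.00657). By all 3 probe sets Fgfr1 was lowest in epidermis, while tumour and PDKC1 changed places between them. Which transcripts each detects was not analysed here. The fibroblast markers summed to 711 to 932 in PDKC1. At 0 h Col1a1 read 46.9 and Pdgfra 6.90 there. Col1a2, Dcn and Postn, at 267.6, 118.7 and 117.6, were over that array's median probe set, and the other fibroblast markers were not. Both the fibroblast and the skeletal muscle markers had higher sums in tumour than in epidermis. The part of these and other cell types in the Fgfr1 difference between the tissues was not tested.

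Fgfr2, whose IIIb product is the keratinocyte receptor for FGF7, FGF10 and FGF22, was higher in tumour by 2 of 3 probe sets. The probe set 1433489_s_at read 6452 and 11517 in the tumours, 3009 and 3892 in epidermis, and 994.1, 1087 and 1312 in PDKC1. The tumours were highest, PDKC1 lowest, and no groups overlapped. The difference was 1.33 ± 0.32 (adjusted p = 0.0192), a 2.51-fold difference. It was not called with array medians set equal (0.69, adjusted p = 0.127), without a variance trend (adjusted p = 0.0770), or without epidermis 1 (0.194) or epidermis 2 (0.0974). The probe set 1443211_at read 135.1 and 203.2 in the tumours, 8.4 and 4.3 in epidermis, and 16, 8.7 and 7.0 in PDKC1. The 2 tumours alone were over the median probe set of their array, and the difference was 3.03 ± 0.51 (adjusted p = 0.00492). Since epidermis lay under the pseudocount of 16, that constant sets much of the size. The probe set 1420847_a_at read 369.5 and 218.0 in tumour and 180.4 and 338.8 in epidermis, which overlapped (0.19 ± 0.43, adjusted p = 0.800). In PDKC1 it was brighter than in any tissue array, at 1017, 981.4 and 1323. PDKC1 was thus lowest by 1433489_s_at and highest by 1420847_a_at.

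Fgfr3, a receptor gene of the epidermis whose activating mutations occur in benign human skin tumours, did not pass the test. The probe set 1421841_at read 3847 and 2769 in the tumours and 2691 and 3071 in epidermis, so that the tissues overlapped. The difference was 0.18 ± 0.24 (adjusted p = 0.648). PDKC1 was far lower, at 203.1, 199.5 and 147.6. The other probe set, 1425796_a_at, was dim: 54.1 and 45.7 in tumour, 70.4 and 149.5 in epidermis, and 13.8, 47.7 and 96.0 in PDKC1. Both epidermis arrays lay above both tumours, but the difference of -0.86 ± 0.53 was not called (adjusted p = 0.293).

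**Figure D2:**
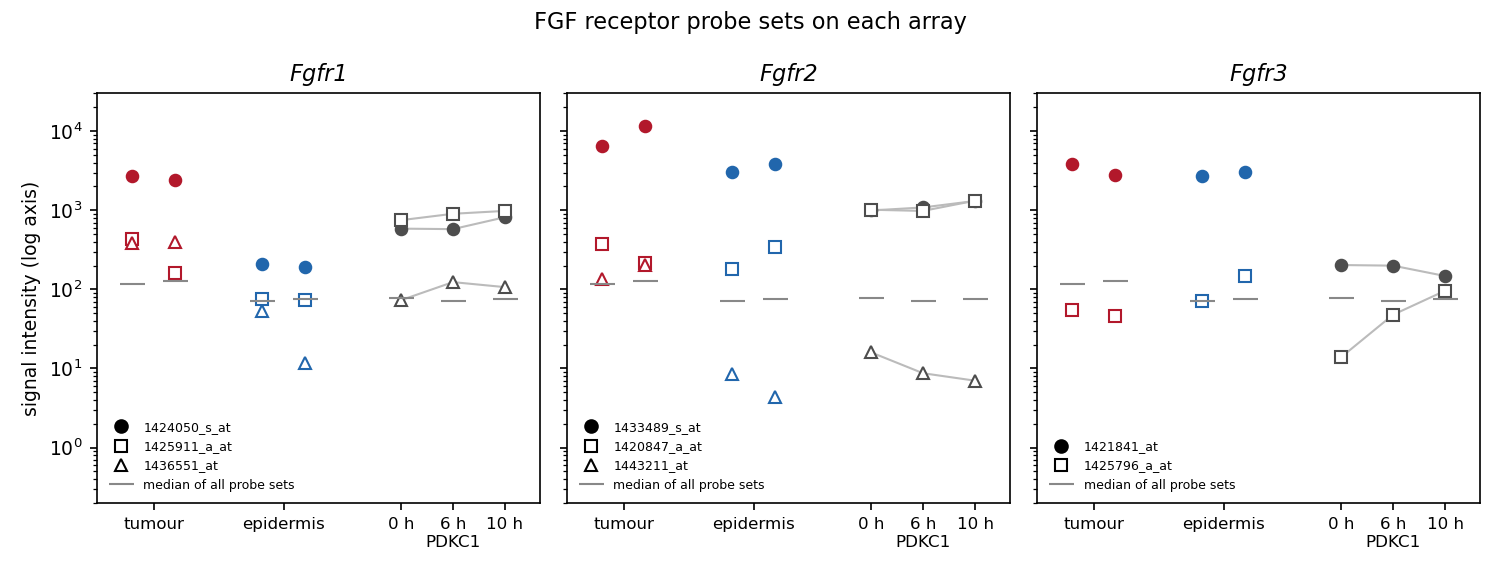
Signal intensity (log axis) of each probe set of the 3 receptor genes on the 7 arrays, with 1 point per array; red is tumour, blue epidermis and grey PDKC1, joined by lines over the hours with cyclopamine, and dashes give the median of all probe sets. Fgfr1 1424050_s_at sits at 2385 to 2677 in tumour and 189.8 to 206.9 in epidermis, while Fgfr3 1421841_at overlaps between the tissues and drops to 147.6 to 203.1 in PDKC1.

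Among the ligands, Fgf1, which binds all FGF receptor forms, was higher in tumour by 2 of 3 probe sets. The probe set 1441042_at read 433.2 and 484.7 in tumour and 34.0 and 16.2 in epidermis, with 70.0, 63.1 and 56.8 in PDKC1. The tumours stood above all other arrays, by 3.56 ± 0.45 over epidermis (adjusted p = 0.00160). The probe set 1423136_at read 571.2 and 377.8 in tumour, 156.8 and 135.1 in epidermis, and 425.2, 533.4 and 406.9 in PDKC1. Here PDKC1 overlapped the tumours and epidermis was lowest. Its difference was 1.57 ± 0.35 (adjusted p = 0.0145). It was not called with quantile normalization (adjusted p = 0.102), with array medians set equal (0.93, 0.0953), or without epidermis 1 (0.0989) or epidermis 2 (0.126). The probe set 1450869_at overlapped between the tissues, at 104.3 and 61.9 in tumour and 126.8 and 66.6 in epidermis (-0.17 ± 0.53, adjusted p = 0.859). PDKC1 was highest by that probe set, at 292.2, 316.0 and 205.7.

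Fgf7, keratinocyte growth factor, and Fgf10 are ligands that fibroblasts send to epithelium. The Fgf7 probe set 1438405_at read 327.6 and 214.5 in tumour, 88.7 and 63.7 in epidermis, and 7.1, 2.6 and 39.3 in PDKC1. The order was tumour, epidermis, PDKC1, with no overlap, and the difference between the tissues was 1.62 ± 0.43 (adjusted p = 0.0287). The fibroblast markers, 9 of 10 of which were higher, had the same order of sums over these groups. So did the sums of endothelial, adipocyte, macrophage and gamma-delta T cell markers. Those of keratinocyte, melanocyte and skeletal muscle markers had other orders. The part of any of these cell types in the Fgf7 result was not tested. The call was lost without tumour 1 (adjusted p = 0.101), epidermis 1 (0.113) or epidermis 2 (0.181), with quantile normalization (0.179), with array medians set equal (0.98, 0.133) and with all 7 arrays in 1 fit (0.0520). By the other probe set, 1422243_at, Fgf7 overlapped between the tissues, at 137.9 and 93.2 in tumour and 32.3 and 140.5 in epidermis (0.58 ± 0.65, adjusted p = 0.577). In PDKC1 it read 34.1, 41.8 and 55.7. Fgf10 had 1 probe set, 1420690_at, at 83.1 and 69.5 in tumour and 69.0 and 77.5 in epidermis. The tissues did not separate (0.05 ± 0.47, adjusted p = 0.957), and only epidermis 2 was over its array's median. PDKC1 read 36.1, 3.7 and 24.6.

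Fgf22, a ligand gene of the same subfamily as Fgf7 and Fgf10, was the member that was lower in tumour. The probe set 1460296_a_at read 73.7 and 71.7 in tumour, 456.0 and 612.2 in epidermis, and 62.6, 26.2 and 12.2 in PDKC1. Epidermis was the only group over the median probe set, and both tumours lay above the 3 PDKC1 arrays. The difference was -2.62 ± 0.36 (adjusted p = 0.00216), so that epidermis was 6.14-fold higher. The second probe set, 1450205_at, gave the same order of tissues, at 9.1 and 72.5 in tumour and 160.0 and 244.2 in epidermis. Its difference of -2.18 ± 0.68 was at the edge of the threshold (adjusted p = 0.0498). It was not called without tumour 1 (-1.27, adjusted p = 0.0867), epidermis 1 (0.137) or epidermis 2 (0.232), with a pseudocount of 4 (0.0585) or without a variance trend (0.0706). PDKC1 read 15.4, 57.1 and 31.4.

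The remaining ligands were dim. Fgf2, a broad mitogen also stored in matrix, read 10.5 and 14.2 in tumour, 2.6 and 48.6 in epidermis and 41.4 to 54.1 in PDKC1 by its probe set 1449826_a_at, and no array put it over its median (-0.29 ± 0.62, adjusted p = 0.783). Fgf18 read 180.6 in tumour 1 but 10.4 in tumour 2, against 23.5 and 9.7 in epidermis and 4.7, 41.9 and 3.4 in PDKC1, by 1449545_at. It rested on tumour 1 alone: the difference was 1.18 ± 0.91 (adjusted p = 0.40) with both tumours, 2.63 (adjusted p = 0.0285) without tumour 2, and -0.27 (0.725) without tumour 1. Of the 9 probe sets called, 5 were called in every alternative that kept them, including without each tissue array: Fgfr1 1424050_s_at and 1436551_at, Fgfr2 1443211_at, Fgf1 1441042_at and Fgf22 1460296_a_at.

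**Figure D3:**
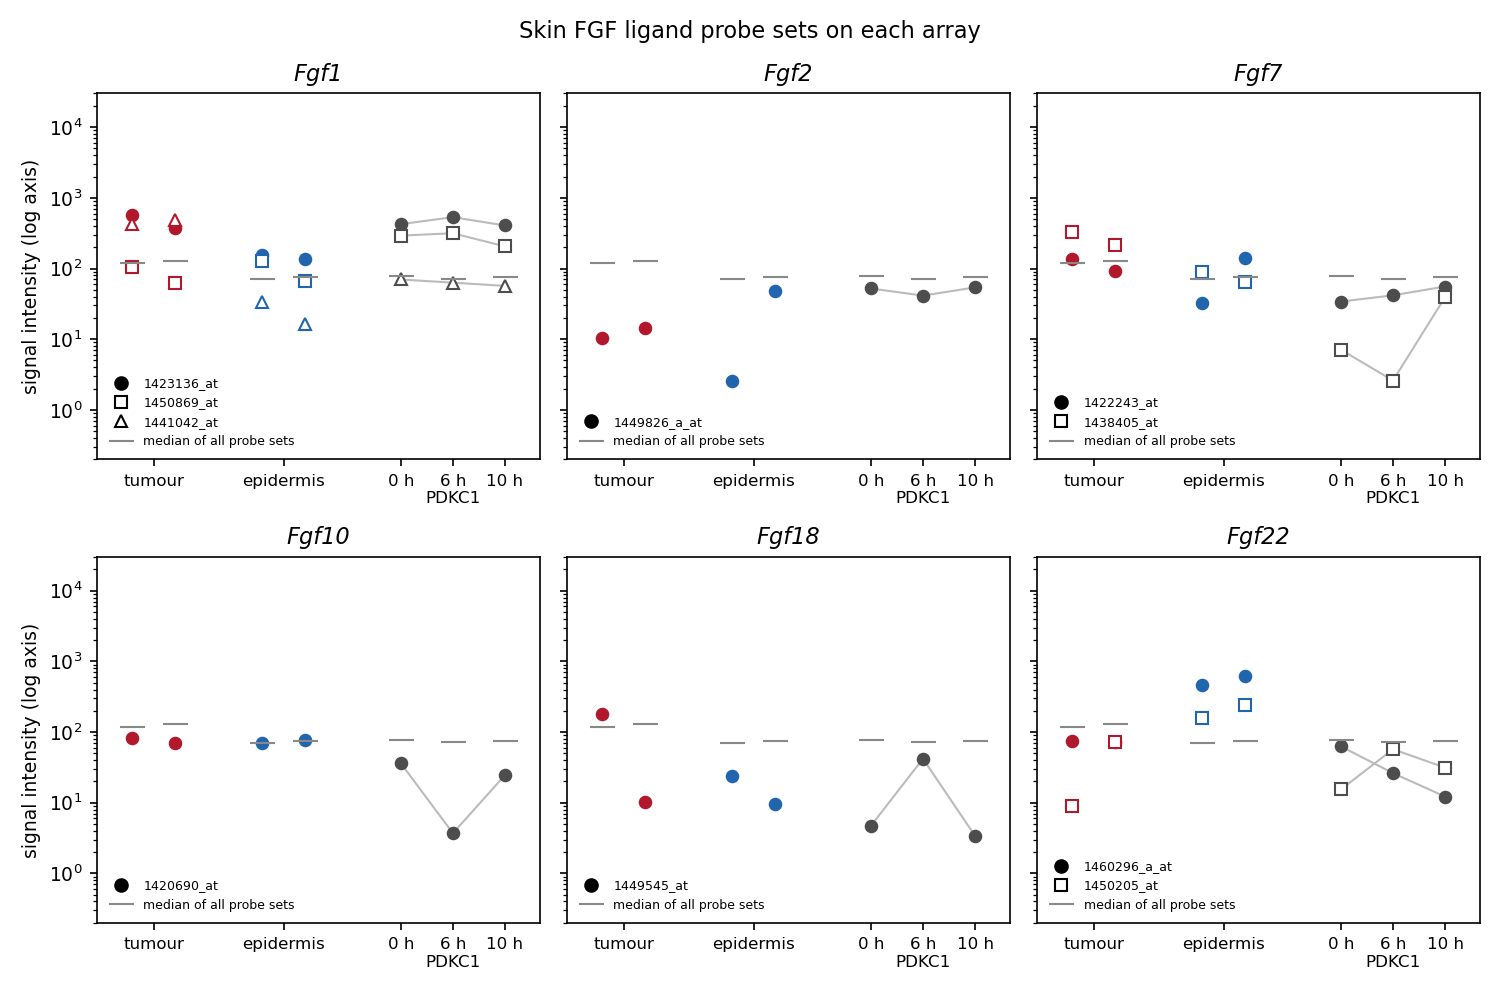
Signal intensity (log axis) of each probe set of the 6 ligand genes on the 7 arrays, drawn as for the receptors, with dashes at the median of all probe sets. Fgf22 1460296_a_at is at 456.0 and 612.2 in epidermis and at or below 73.7 elsewhere, Fgf18 is over the median in tumour 1 alone, and Fgf2 is under it on every array.

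Other genes of FGF signalling were read by their brightest probe set, and 74 of 82 listed genes were measured; the rest were not analysed here. Together 15 were higher in tumour and 10 lower, against 16.2% and 12.3% of all genes, with a median of 0.08 beside 0.09 for all genes. These counts were 5 and 4 without epidermis 1, and without epidermis 2 they were 7 and 3. After setting array medians equal they were 8 and 19. Without tumour 1 they were 20 and 12, and without tumour 2, 18 and 8. The shares given above under these alternatives are of all probe sets, and they moved as well. Shares of all genes were not computed under them, so these counts have no share of the same unit beside them. For the counts of each list below, the shares to compare are those of all genes, 16.2% higher and 12.3% lower.

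Of 15 feedback and target genes, which ERK signalling induces or which restrain it, 4 were higher and 1 lower, with a median of 0.41. Il17rd (Sef), a membrane inhibitor of FGF signalling, read 1569 and 1246 in tumour and 120.4 and 178.5 in epidermis (3.12 ± 0.31, adjusted p = 0.000733). The ETS factor gene Etv4 read 336.7 and 141.2 against 13.3 and 22.6 (2.81 ± 0.57, adjusted p = 0.0103), and was not called without epidermis 1 (0.0745). The inhibitor genes Spry2 and Spred1 differed by 1.51 ± 0.27 and 1.34 ± 0.22. Neither was called without epidermis 1 (adjusted p = 0.0887 and 0.106) or epidermis 2 (0.0705 and 0.0582), nor Spred1 with array medians set equal (0.0580). Dusp5, an ERK phosphatase gene, was the lower member, at 21.7 and 20.6 in tumour and 419.3 and 256.4 in epidermis (-3.21 ± 0.48, adjusted p = 0.00295). Among the genes not called, the feedback inhibitors Spry1 and Dusp6, picked after their values were seen, had differences of 0.08 (adjusted p = 0.848) and 0.16 (0.850).

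Of 9 other receptors and co-factors 3 were higher and 3 lower, with a median of -0.34. Fgfrl1, a receptor that lacks the kinase domain, read 1383 and 1676 in tumour and 171.1 and 133.8 in epidermis (3.20 ± 0.28, adjusted p = 0.000586). Flrt2, a membrane partner of FGF receptors, read 3259 and 2824 against 376.0 and 415.7 (2.89 ± 0.23, adjusted p = 0.000480). Its relative Flrt3 differed by 0.83 (adjusted p = 0.0466), with adjusted p = 0.301 without epidermis 1, 0.251 without epidermis 2 and 0.625 with array medians set equal. Fgfbp1, which releases FGFs from matrix, was lower, at 925.8 and 522.5 in tumour and 3339 and 3193 in epidermis (-2.20 ± 0.30, adjusted p = 0.00212). Flrt1 differed by -1.55 (adjusted p = 0.0111), which was 0.103 without epidermis 1 and 0.133 without epidermis 2. Klb, a co-receptor gene for endocrine FGFs, was dim in both tissues and not called without any 1 of the 4 tissue arrays (adjusted p = 0.0843 to 0.160).

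Of 19 heparan sulfate genes 5 were higher and none lower, with a median of 0.50. The glypican gene Gpc6 read 709.0 and 600.0 in tumour and 71.1 and 89.7 in epidermis (2.80 ± 0.34, adjusted p = 0.00138). The syndecan gene Sdc3 differed by 2.43 ± 0.31 (adjusted p = 0.00176). Sulf1, a sulfatase gene that trims heparan sulfate, differed by 2.39 ± 0.44 (adjusted p = 0.00663), and was not called without epidermis 1 (0.0632) or with the mean of its probe sets (1.21, 0.0747). Hs6st2, which adds sulfate, differed by 2.28 ± 0.59 (adjusted p = 0.0256), and was not called without tumour 2 (0.112), epidermis 1 (0.111) or epidermis 2 (0.122), nor with quantile normalization (0.0658). With the mean of its probe sets the difference was 0.65 (adjusted p = 0.323).

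Of 12 signal relay genes 3 were higher and 3 lower, with a median of -0.17. Braf differed by 1.23, Plcg1 by 0.90 and Sos2 by 0.84. Map2k2, an ERK kinase gene, differed by -2.10 ± 0.31 (adjusted p = 0.00277), the adaptor gene Grb2 by -1.36 and Map2k1 by -1.03. Apart from Map2k2, all of these lost their call without epidermis 1 (adjusted p = 0.116 for Braf, 0.245 for Plcg1, 0.228 for Sos2, 0.126 for Grb2 and 0.20 for Map2k1). The same held without epidermis 2, where adjusted p was 0.158, 0.238, 0.259, 0.123 and 0.235 in that order. With the mean of its probe sets Grb2 differed by -0.39 (adjusted p = 0.248), and Plcg1 by 0.61 (0.255). Of 16 other FGF family genes, which include intracellular members such as Fgf13, 2 were lower and none higher, with a median of -0.63. The shares of all genes were 12.3% and 16.2%. None of the 16 was over the median probe set on every tissue array, so that median rests on dim values. The lower genes were Fgf23, at 3.2 and 3.5 in tumour and 50.7 and 80.4 in epidermis, and Fgf6, at 4.2 and 3.7 against 38.5 and 46.7. Both rest on dim values, and Fgf6 was not called without any 1 of the tissue arrays (adjusted p = 0.0746 to 0.113), nor Fgf23 without tumour 2 (0.0571) or epidermis 2 (0.0692). Of the other FGF genes named, Il17rd, Dusp5, Fgfrl1, Flrt2, Fgfbp1, Gpc6, Sdc3 and Map2k2 were called in every alternative run, leaving out each tissue array included. Setting array medians equal also lost Braf, Plcg1, Sos2 and Hs6st2.

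**Figure D4:**
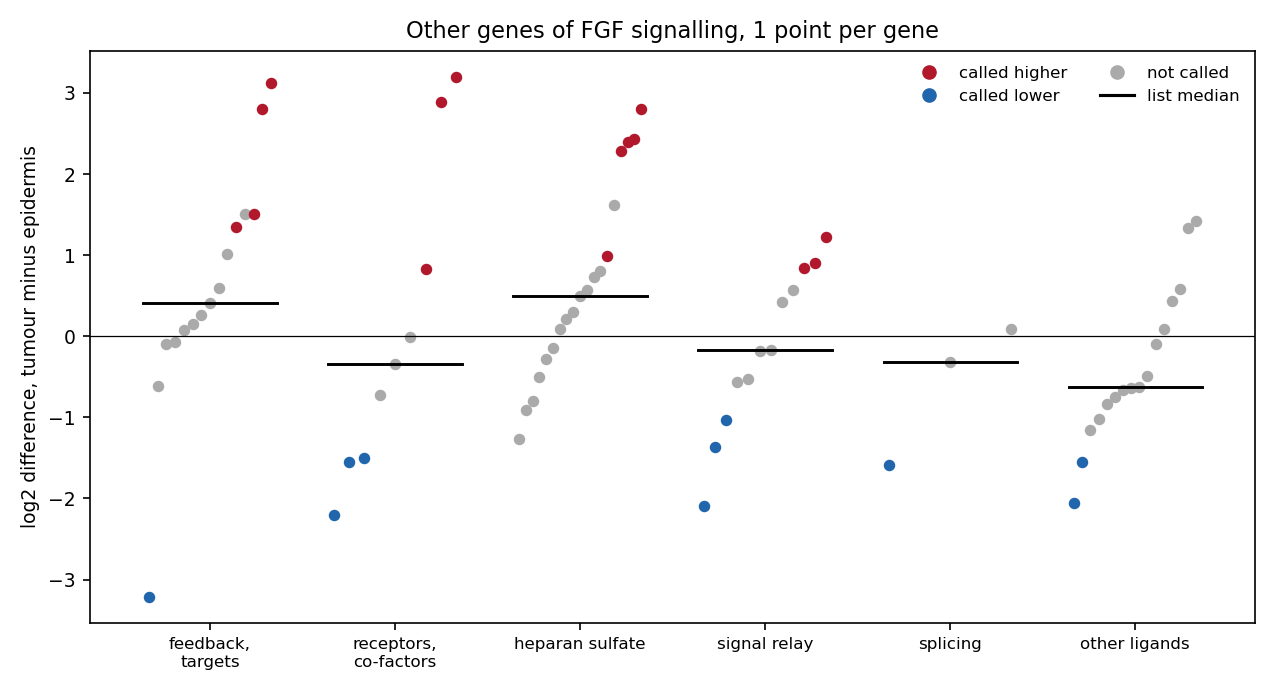
Log2 difference between tumour and epidermis for 74 other genes of FGF signalling in 6 lists, with 1 point per gene (its brightest probe set) on the log2(intensity + 16) scale and a bar at each list's median. The list medians run from -0.63 for other FGF family genes (marked other ligands) to 0.50 for heparan sulfate genes. No gene of the former list was over the median probe set on every tissue array.

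The splicing regulators that favour the epithelial IIIb form set PDKC1 apart from both tissues. Esrp1 read 9981 and 12003 in tumour and 14477 and 12792 in epidermis, but 46.1, 8.0 and 4.0 in PDKC1. Between the tissues it did not pass the test (-0.31, adjusted p = 0.394). Its relative Esrp2 read 1908 and 1519 in tumour and 5175 and 5080 in epidermis (-1.58 ± 0.22, adjusted p = 0.00242), and 204.3 to 234.3 in PDKC1. The Esrp2 call was lost without epidermis 1 (0.0582) or epidermis 2 (0.0512). Rbfox2, another splicing factor acting on Fgfr2, had the opposite order, at 152.2 and 226.4 in tumour, 200.1 and 150.4 in epidermis and 2590 to 2788 in PDKC1. Esrp1 and Rbfox2 were picked after their values were seen. These values stand beside the Fgfr1 and Fgfr2 probe sets that were brightest in PDKC1, and a link between them was not tested. RNA input was 100 ng for each tissue array and 2 µg for each PDKC1 array. The Actb 3′ to 5′ ratio was 2.84 to 93.1 in the tissues and 1.15 to 1.21 in PDKC1. These differences cannot be told apart from that between line and tissue, and their part was not tested.

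PDKC1 was exposed to cyclopamine to follow the line when Hedgehog signalling is blocked. The Hedgehog target Gli1 read 841.9 at 0 h, 193.2 at 6 h and 189.6 at 10 h. With 1 array per time the differences have no replicate check. No array holds PDKC1 kept for 6 h or 10 h without cyclopamine. The drug and time in culture thus cannot be told apart. Of the 18 probe sets 9 were bright enough to be counted, that is, over the median probe set in their brightest PDKC1 array. Among these, 1 was at least 2-fold higher at both times and none was 2-fold lower at either time. Over all probe sets counted in the same way, 2.29% were 2-fold higher and 3.27% lower at 6 h, and 2.84% and 3.02% at 10 h. The probe set that passed was Fgfr3 1425796_a_at, at 13.8, 47.7 and 96.0. It was over the median in the 10 h array alone, so it was counted only through the time at which it was high, and at 0 h it lay under the pseudocount of 16. Its log2 differences from 0 h were 1.10 and 1.91, or 1.04 at 10 h with a pseudocount of 64, where the 6 h difference was under 2-fold. The brighter Fgfr3 probe set went the other way, from 203.1 to 199.5 and 147.6, a difference of -0.42 at 10 h.

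All 5 Fgfr1 and Fgfr2 probe sets that were bright enough read higher at 10 h than at 0 h, by 0.37 to 0.47 on the log2 scale, while the median of all probe sets was -0.02. At 6 h they differed from 0 h by -0.05 to 0.65. Fgfr1 1436551_at was over the median at 6 h and 10 h alone. It was thus counted only through the times at which it was high. The Fgfr2 probe set 1443211_at, left out as too dim, differed by -0.48 at 10 h. At 10 h, 15.3% of all probe sets counted were as high as the lowest of the 5. The 10 h range was 0.37 to 0.47 after quantile normalization and 0.41 to 0.51 with array medians set equal. Fgf1 1423136_at read 425.2, 533.4 and 406.9, differing by 0.32 and -0.06 from 0 h. Fgf1 1450869_at differed by 0.11 and -0.48. None of these reached 2-fold. The 7 probe sets of Fgf2, Fgf7, Fgf10, Fgf18 and Fgf22, with Fgfr2 1443211_at and Fgf1 1441042_at, were under the median on every PDKC1 array, so their differences there were not counted.

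Among the other FGF genes counted in PDKC1, 1 of 56 was at least 2-fold higher at both times and 2 were lower, against 0.924% and 1.01% of all genes. The first was Frs3, an adaptor gene of FGF receptors, at 54.7, 145.4 and 132.9. The lower genes were Fgf9, at 156.3, 49.5 and 64.1, and Fgf21, at 80.8, 8.2 and 18.1, which are ligand genes. Fgf9 and Fgf21 were over the median at 0 h alone, and Frs3 at 6 h and 10 h alone, so all 3 were counted only through the times at which they were high. None of the 3 was past 2-fold at 10 h with a pseudocount of 64. The following genes were chosen after their values were seen. Fgf5, a ligand gene that ends hair growth, read 1954, 1140 and 655.8, with log2 differences of -0.77 and -1.55. It read 23.9 and 43.8 in tumour and 4.2 and 2.5 in epidermis, so PDKC1 was the only source with a bright Fgf5 signal. Dusp6, the ERK phosphatase gene induced by FGF signalling, read 13261, 12126 and 9726 in PDKC1 against 1357 and 458.9 in tumour and 726.0 and 692.6 in epidermis. From 0 h to 10 h Dusp6 differed by -0.45, Etv4 by -0.48, Etv5 by -0.38 and Spry1 by -0.51, while Spry2 differed by 0.23 and Il17rd by 0.50. The median over the 15 feedback and target genes, without the filter on level, was -0.43 at 10 h, against -0.01 for all genes. What share of all genes fell as far was not computed.

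**Figure D5:**
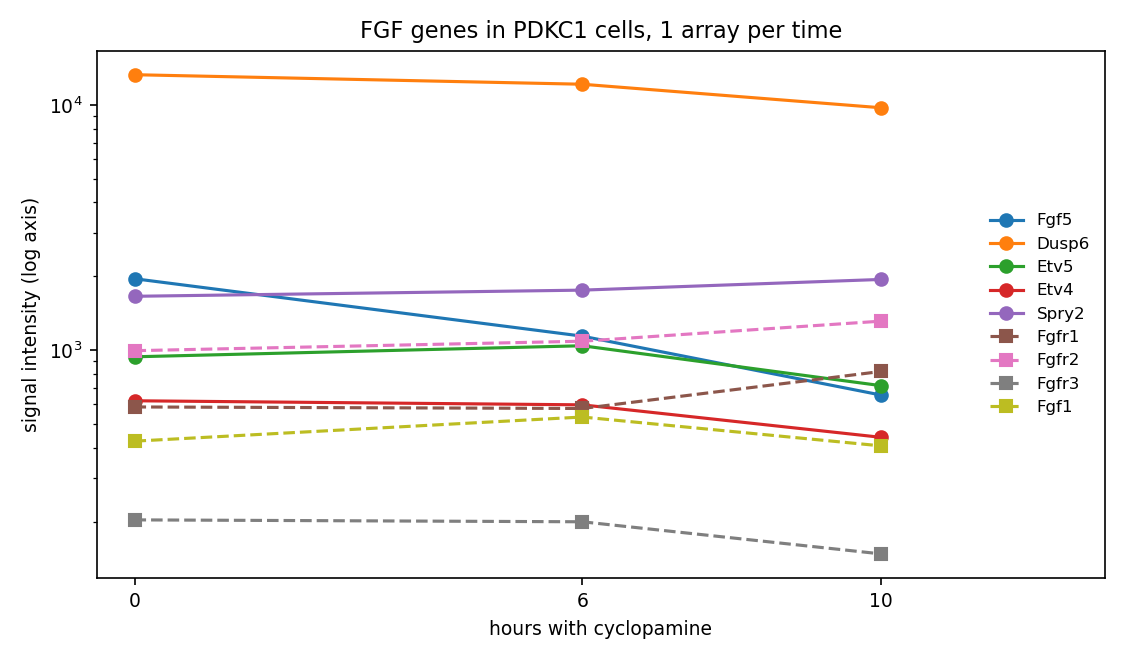
Signal intensity (log axis) of 4 of the described genes (dashed, squares) and 5 other FGF genes (solid, circles; chosen after their values were seen) in PDKC1 against hours with cyclopamine, with 1 array per time and so no error bars. Fgf5 goes from 1954 to 655.8, while the plotted Fgfr1 and Fgfr2 probe sets end higher than they began, at 817.8 and 1312.

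The genes most like each receptor over the 7 arrays were found by Pearson's r of its brightest probe set with 15665 other genes that ranged over at least 1 on the log2 scale. The arrays share their groups, so a high r mostly reflects a like order of tumour, epidermis and PDKC1. For Fgfr1 they were Tle2 (r = 0.995), Lbp (0.994) and the Hedgehog transducer gene Smo (0.993), which read a mean of 3648 in tumour, 1138 in epidermis and 1935 in PDKC1 at 0 h. For Fgfr2 they were the activin receptor gene Acvr1b (0.997), Zfp37 (0.996) and Wbp4 (0.996). For Fgfr3 they were Sostdc1, a BMP and Wnt antagonist gene (0.9996), Cwh43 (0.999) and Zfp783 (0.999). Sostdc1 read a mean of 4868 in tumour and 4339 in epidermis, and 453.6 in PDKC1 at 0 h.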

How the data were processed

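RNA of 4 tissue samples and 3 PDKC1 cultures was measured on Affymetrix mouse arrays, 1 array each. Per the labels' protocols, total RNA was column-purified and biotinylated cRNA was made from it. Values in the table deposited by the authors are signal intensity on a linear scale for 45101 probe sets; the sources used here do not name the software. The mean of each array without its lowest and highest 2% of probe sets was 500.0, so the arrays appear scaled, and nothing further was applied. No arrays were identical. Their number limits the precision, and the labels do not say whether arrays of a group are from different mice, so that p-values reflect the spread of these samples alone, which could be technical.

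The 64 control probe sets were left out. Symbols came from the platform's annotation, updated through Entrez identifiers: 34945 probe sets had 1 gene, 932 several and 9160 none. Values were taken as log2(intensity + 16). Tumour and epidermis were fitted with limma 3.58.1 in R 4.3.3 (lmFit, then eBayes with its trend option), two-sided, on the 4 tissue samples, with Benjamini-Hochberg adjustment over 45037 probe sets. A fold change is on that log2 scale, which understates changes of dim probe sets. The fit was tested on simulated data. 

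All probe sets of the 9 genes are reported. From each list of other FGF genes up to 4 called genes in each direction were named, by size; exceptions are stated. In PDKC1, members past 2-fold and list genes past 2-fold at both times were named. Members and lists were chosen with earlier results of these data known. Alternatives changed 1 choice at a time: normalization, equal array medians, pseudocounts of 4 and 64, a filter at the 40th percentile, 1 value per gene, no variance trend, a replicate block, all 7 arrays, each tissue array left out, and for PDKC1 a 1.5-fold limit and no filter.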

Additional observations from a re-analysis of the deposited data

How the results depend on the processing

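The 18 member probe sets gave 7 calls higher and 2 lower. The counts were 4 and 2 with array medians set equal, where 10.8% and 19.4% of all probe sets were called. They were 8 and 1 with a pseudocount of 4 (18.1% and 9.07% of all) and 6 and 1 without a variance trend (15.9% and 6.22%). With 1 value per gene they were 3 and 1 of 9 genes, whether the brightest probe set or the mean was used, which compares fewer items. Over all genes the shares were 16.6% and 12.5% by the brightest probe set, and 14.7% and 10.4% by the mean. Leaving out each tissue array gave 4 to 9 higher and 1 to 2 lower; the array left alone in its group is then assumed to vary like the others. For the other FGF genes, 15 higher and 10 lower became 8 and 19 with equal medians, and 5 to 20 and 3 to 12 with an array left out. With the replicate block the counts were 8 and 2 for members (19.2% and 9.44% of all probe sets). For other genes they were 16 and 10, and the share of all genes was not computed. The block moved no count by over 1.5 times; it called Fgfr1 1425911_a_at (adjusted p = 0.0259) and lost Klb (0.0554).

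The numbers do not tie the arrays: deviations of same-numbered arrays from their group means had a correlation of -0.0009. Directions that turned were all of probe sets not called. With quantile normalization and with equal medians, the difference was -0.50 and -0.45 for Fgfr2 1420847_a_at, -0.047 and -0.064 for Fgf7 1422243_at, and -0.53 and -0.59 for Fgf10. For Fgfr3 1421841_at it was -0.46 with equal medians and -0.34 with the mean of probe sets. With an array left out the differences ran from -0.24 to 0.61 for Fgfr2 1420847_a_at, -0.054 to 0.42 for Fgfr3 1421841_at, -0.56 to 0.23 for Fgf1 1450869_at and -1.19 to 0.60 for Fgf2. They ran from -0.27 to 1.42 for Fgf7 1422243_at, -0.060 to 0.15 for Fgf10 and -0.27 to 2.63 for Fgf18. The cause was not tested.

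In PDKC1, the count of member probe sets 2-fold higher at 6 h was 0 with a pseudocount of 64 and 2 with a 1.5-fold limit. Without the filter on level it was 3 at 6 h and 2 at 10 h, with 1 lower at each time. These added probe sets were of Fgf18, Fgf22, Fgf7 and Fgf10, all dim. Members near the median probe set, which are most of the ligands, are limited by signal over background.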

Other observations

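Values of 2 other FGF-related genes in PDKC1 over the hours with cyclopamine are given here; they were picked after their values were seen and have no replicate check. Fgf13, an intracellular FGF-related gene, read 251.9, 217.6 and 438.0 at 0 h, 6 h and 10 h. The phosphatase gene Dusp5 read 344.2, 236.7 and 121.3, and so was nearer to epidermis than to tumour at 0 h.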
